A study of Mus musculus with 10 samples.

Results

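The mitochondrial genome transcripts studied here are the 37 genes whose symbol starts with mt- (13 protein-coding, 2 rRNA and 22 tRNA genes) together with Gm11512, Gm4076 and Gm13340, nuclear genes that carry copies of mitochondrial sequence. These 40 genes are all members found among the 41388 genes of the deposited tables. The mt- genes were taken by symbol alone. The 3 nuclear copies were chosen by their levels in libraries with BFMI and with B6N mitochondria, with all 4 groups known, so those levels are given as a description, with no test. Liver RNA was sequenced from 10 mice aged 10 weeks. The matBFMI group holds 3 F1 males of a BFMI mother and a B6N father, and the patBFMI group 3 F1 males of a B6N mother and a BFMI father, each of a different mother. BFMI is the obese inbred line BFMI860-12/Hber and B6N the lean strain C57BL/6NCrl, each with 1 male and 1 female. No allele was introduced in any group. The F1 males received a high fat diet from weaning, while the sample records give the parental strains a standard breeding diet and the methods of the study a high fat diet.

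Mitochondria and their genome pass from the mother, so matBFMI and BFMI mice carry BFMI mitochondria (5 libraries) and patBFMI and B6N mice carry B6N mitochondria (5 libraries). The mammalian mitochondrial genome is transcribed from both strands into long precursors, which are cut at the tRNAs that lie between the other genes. Its mRNAs encode core subunits of the respiratory complexes I, III and IV and of the ATP synthase, and its rRNAs and tRNAs serve the ribosomes inside the organelle. In the liver these complexes take up the electrons that fatty acid oxidation releases. Pieces of mitochondrial DNA have also been inserted into the nuclear chromosomes during evolution, and some are annotated there as pseudogenes.

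Reads assigned to genes numbered 46988713 to 58955349 in 9 libraries and 96023811 in the BFMI male. Lane 6 held the matBFMI libraries and lane 5 the patBFMI libraries, so lane and cross cannot be told apart, and the inbred libraries came from lane 4 except for the BFMI male from lane 1. In patBFMI 1 more genes were detected (32421) than in the other 5 F1 libraries (22095 to 26694). The 10 hepatocyte markers summed to 71959 to 101960 CPM, while the 5 adipocyte markers summed to at most 1.06 CPM. CPM is the count divided by the TMM-scaled library size and multiplied by 1000000. A gene is called where the Benjamini-Hochberg adjusted p from edgeR is under 0.05, and SE is the standard error of a log2 fold change. In bulk RNA fewer mitochondria, fewer cells of a type and less RNA per cell cannot be told apart.

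Nucleotide sequences show how close the 3 nuclear copies are to the mitochondrial genes. Gm13340 (chromosome 2, 22588103 to 22589647, minus strand) matched the whole of mt-Co1, the catalytic subunit 1 of cytochrome c oxidase, over 1545 bases at 97.6% identity. Gm11512 (chromosome 11, 90538484 to 90539146, minus strand) matched 654 bases at the end of the same gene at 90.67% identity. Gm4076 (chromosome 13, 85126550 to 85127514, minus strand) matched 954 bases of mt-Nd5, a complex I subunit, at 95.18% identity. The annotation calls all 3 pseudogenes. Within the 654 bases that both copies of mt-Co1 cover, Gm13340 differed from mt-Co1 at 18 positions and Gm11512 at 61, and 9 of these positions were shared. Stretches of 90 bases are shown, in mitochondrial sense, with capitals at the positions where a copy and the mitochondrial gene differ. For mt-Nd5 it is the stretch where Gm4076 differs most. For mt-Co1 it is the stretch with the most positions (16) at which either copy differs. It was thus not chosen for Gm13340 alone and need not be where Gm13340 differs most.
mt-Co1 (chrM:6396-6485, plus strand): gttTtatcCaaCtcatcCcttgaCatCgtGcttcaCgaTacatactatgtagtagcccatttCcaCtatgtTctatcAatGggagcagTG
Gm13340 (chr2:22588490-22588579, minus strand): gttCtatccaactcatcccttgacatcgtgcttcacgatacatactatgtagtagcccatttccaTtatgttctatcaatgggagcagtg
Gm11512 (chr11:90538868-90538957, minus strand): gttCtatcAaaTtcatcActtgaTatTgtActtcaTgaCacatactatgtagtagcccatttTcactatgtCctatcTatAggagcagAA
mt-Nd5 (chrM:12630-12719, plus strand): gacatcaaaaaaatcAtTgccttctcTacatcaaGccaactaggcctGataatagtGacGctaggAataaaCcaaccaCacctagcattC
Gm4076 (chr13:85127242-85127331, minus strand): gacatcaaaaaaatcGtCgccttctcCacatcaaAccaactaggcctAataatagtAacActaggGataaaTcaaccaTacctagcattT
In these stretches Gm13340 differed from mt-Co1 at 2 positions and Gm11512 at 15, and Gm4076 differed from mt-Nd5 at 11. Sequences and positions are those of the GENCODE M21 reference transcripts (GRCm38), a C57BL/6J reference, and the BFMI mitochondrial sequence was not analysed here. The longest run without any difference was 148 bases in Gm13340, 82 in Gm4076 and 54 in Gm11512.

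The share of reads that came from the mitochondrial genome did not separate the maternal lines. The 37 mt-encoded genes took 5.18%, 4.83% and 3.84% of assigned reads in matBFMI 1, 2 and 3 and 4.53%, 5.05% and 4.93% in patBFMI 1, 2 and 3. The share was 6.59% in the BFMI male, 5.13% in the BFMI female, 5.70% in the B6N male and 6.30% in the B6N female. The F1 groups overlapped, and matBFMI held both the highest and the lowest share of the 6 F1 males. Mean shares were 4.62% ± 0.692 in matBFMI and 4.84% ± 0.271 in patBFMI (SD, n = 3 each), a difference of -0.22 percentage points (exact two-sided permutation test, p = 0.8, where the smallest p of this design is 0.1). Without matBFMI 3 the difference was 0.164 percentage points, the opposite sign. Over all 10 libraries the mean was 5.11% ± 0.987 with BFMI mitochondria and 5.30% ± 0.699 with B6N mitochondria (SD, n = 5 each; exact permutation within F1 males, inbred males and inbred females, p = 0.675). Among 7 shares tested in each comparison, which also cover rRNA, mRNA, tRNA, mt-Rnr2, mt-Co1 and complex I, the adjusted p was 0.9 throughout.

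As counted for the mt- genes, the 2 rRNA genes gave more reads than the 13 protein-coding genes in every library. They took 2.22% to 4.04% of all assigned reads, although the library protocol names a step that depletes rRNA, and the protein-coding genes took 1.63% to 3.15%. The sample records give polyA RNA as the molecule, so how RNA was selected is not settled, and its part in these shares was not tested. The BFMI male held the highest protein-coding share, and the next highest was 2.29% in the B6N male. With the reads of all 20 nuclear copies described below added to the protein-coding side, however, that side exceeded the rRNA genes in 4 of the 10 libraries, matBFMI 2, matBFMI 3, the BFMI male and the BFMI female. The tRNA genes together had 511 to 2054 reads per library. Strain differences in the total went in opposite directions in the sexes, 0.89 percentage points higher in BFMI among males and 1.17 points lower among females (-1.17), with 1 library for each strain and sex.

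**Figure D1:**
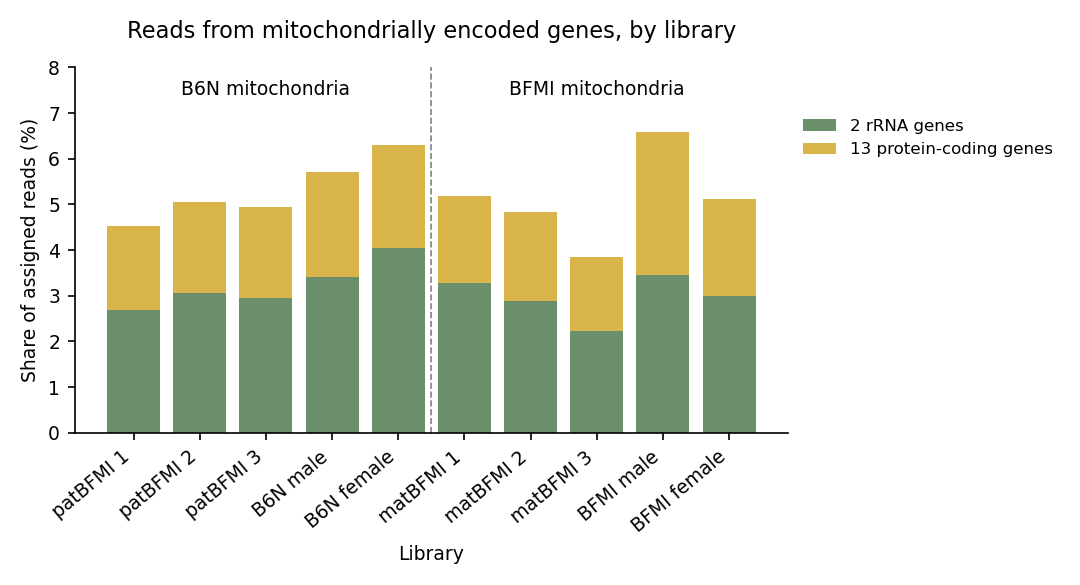
Share of assigned reads (%) from the 2 mitochondrial rRNA genes and the 13 protein-coding genes in each of the 10 libraries, stacked, with B6N mitochondria on the left of the dashed line and BFMI mitochondria on the right. The totals run from 3.84% in matBFMI 3 to 6.59% in the BFMI male and overlap between the maternal lines.

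Levels per kilobase of gene ran over a wide range within the mitochondrial genome. As means over the 10 libraries, mt-Rnr2, the large ribosomal RNA, stood at 17609 CPM per kilobase and mt-Co1 at 7912, ahead of mt-Co3 at 3946 and mt-Rnr1, the small ribosomal RNA, at 3222. The library ranges of mt-Co3 (3115 to 4843) and mt-Rnr1 (2567 to 3982) overlapped. Lower followed mt-Co2 (1882), mt-Nd3 (1087), mt-Cytb (1067), mt-Atp6 (1000.3), mt-Nd1 (933), mt-Nd2 (319.6), mt-Nd4 (297), mt-Nd5 (222), mt-Atp8 (209.7), mt-Nd6 (178) and mt-Nd4l (50.4). Thus reads counted per kilobase differed widely between genes, which need not reflect transcript levels alone. mt-Nd6, the only mRNA gene on the other strand, was near the low end. mt-Atp8 shares 43 of its 204 bases with another mitochondrial gene, and mt-Nd4l 7 of its 297. The part of such overlaps in their counts was not tested. Reads counted for nuclear copies, some of them identical in sequence, are not part of these levels. The sources used here do not say whether strand was used in counting, so reads of the opposite strand cannot be told apart, which bears most on mt-Nd6 and the minus-strand tRNAs.

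None of the 37 mt-encoded genes passed the test between matBFMI and patBFMI. Of the 19 with enough reads (10 counts or more in 3 or more of the F1 libraries), 0 were called by edgeR at an adjusted p of 0.05, against 0.143% of all 16797 genes tested. An unadjusted p under 0.05 was found for 3 (mt-Nd1, mt-Co1 and mt-Tc), all lower in matBFMI. mt-Tc had under 10 reads in every matBFMI library and passed the filter only through patBFMI. Its direction, its separation and its DESeq2 call between the F1 groups are therefore no support for a difference. Among all genes tested, 864 were higher and 790 lower at that unadjusted p. Without the filter on low counts 3 mt-encoded genes passed (mt-Nd1, mt-Nd2 and mt-Tc), while calls over all genes rose from 24 to 696. With DESeq2 2 passed (mt-Nd1 and mt-Tc), beside 305 calls over all genes. The libraries of the F1 groups did not overlap for 3 of the 19 (15.8%), mt-Nd1, mt-Tc and mt-Ts1, and did not overlap for 15.3% of all genes tested. The median log2 fold change of the 13 protein-coding genes was -0.10, beside -0.01 over all genes, with 5 positive and 8 negative. Without matBFMI 3 the 15 protein-coding and rRNA genes had a median of 0.06 in place of -0.10.

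Among the genes of complex I, which takes electrons from NADH, mt-Nd1 had the smallest p. It was at 675, 634 and 561 CPM in matBFMI 1, 2 and 3 and at 846, 957 and 853 CPM in patBFMI 1, 2 and 3, so that the highest matBFMI value was under the lowest patBFMI value. Its log2 fold change was -0.52 (SE 0.105, unadjusted p = 0.000851, adjusted p = 0.135 from edgeR), 1.43-fold lower. The study itself chose mt-Nd1 on the same F1 libraries, and its direction is therefore not independent evidence. In the inbred mice mt-Nd1 stood at 1382 CPM in the BFMI male, the highest of all 10 libraries, and at 763 in the BFMI female, against 1132 and 1125 in the B6N male and female. The lower F1 level was thus matched by the inbred females and not by the inbred males (log2 fold change -0.14, SE 0.191, adjusted p = 0.82). No annotated nuclear copy of mt-Nd1 was found among the genes of the tables.

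For the other complex I genes the 2 F1 groups overlapped. mt-Nd2 was at 246, 171 and 105 CPM in matBFMI 1, 2 and 3, at 357, 253 and 198 in patBFMI 1, 2 and 3, at 593 and 343 in the BFMI male and female and at 429 and 621 in the B6N male and female. Its F1 log2 fold change of -0.65 (SE 0.309) was the lowest of the 13 mRNAs, with an adjusted p of 0.543. mt-Nd3 was at 451, 319 and 223 CPM in matBFMI and 282, 332 and 310.2 in patBFMI, and at 516, 399, 469 and 484 CPM in the BFMI male, BFMI female, B6N male and B6N female. mt-Nd4l was at 11.3, 13.5 and 8.56 CPM in matBFMI and 11.2, 9.32 and 7.9 in patBFMI, and at 39.1, 17.9, 14.2 and 16.8 CPM in the same order of inbred mice. For mt-Nd4l the BFMI male was far above the others, and the BFMI female lay just above both B6N mice. The adjusted p of its strain difference was 0.19 (log2 fold change 0.78). By mitochondrial type its log2 fold change was 0.51 (adjusted p = 0.19 from edgeR), ranging from 0.16 to 0.85 as single libraries were left out. mt-Nd4 was at 405, 336 and 215 CPM in matBFMI and 355, 270.1 and 206 in patBFMI, and at 848, 471, 388 and 599 CPM in the inbred mice. mt-Nd5 was at 357, 299 and 188 CPM in matBFMI and 359, 237 and 194 in patBFMI, and at 799, 524, 421 and 676 CPM in the inbred mice. In both genes the spread within each F1 group was wider than the gap between the group means. mt-Nd6, transcribed from the opposite strand, was at 62.3, 56.0 and 29.8 CPM in matBFMI and 98.5, 33.6 and 33.2 in patBFMI, and at 155, 154, 127 and 172 CPM in the inbred mice. All 4 inbred libraries lay above all 6 F1 libraries for mt-Nd6, as they did for mt-Nd4l, mt-Nd5 and the tRNA genes mt-Tn, mt-Tp and mt-Tt. The share of all genes with such a separation was not determined, so it is not a result about these genes. mt-Tn had only 1 to 13 reads per library. In this contrast diet as labelled, lane and genotype cannot be told apart.

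mt-Cytb, the only mitochondrially encoded subunit of complex III, was at 1289, 1072 and 797 CPM in matBFMI 1, 2 and 3 and at 879.8, 969.8 and 805 CPM in patBFMI 1, 2 and 3. The inbred values were 2809.7 CPM in the BFMI male, 1277 in the BFMI female, 1099.5 in the B6N male and 1206 in the B6N female. The BFMI male exceeded all others, and both inbred BFMI mice lay above both B6N mice. The strain log2 fold change was 0.72 (SE 0.289, adjusted p = 0.208) and the F1 one 0.24 (SE 0.167, adjusted p = 0.685). Between BFMI and B6N mitochondria over all libraries it was 0.48 (SE 0.184, adjusted p = 0.184), ranging from 0.16 to 0.80 as single libraries were left out. It passed in the fits without the B6N female (adjusted p = 0.0354) and without the BFMI female (adjusted p = 0.0365).

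The complex IV genes, which encode the 3 core subunits of cytochrome c oxidase, were close between the F1 groups. mt-Co1 was at 10974, 11794 and 9896 CPM in matBFMI and 11701, 13043 and 12429 in patBFMI, and at 15906, 12523, 13178 and 10802 CPM in the BFMI male, BFMI female, B6N male and B6N female. It made up 50.1% to 63.0% of the protein-coding mitochondrial reads. The F1 log2 fold change of mt-Co1 was -0.20 (SE 0.0852, adjusted p = 0.496) and the strain one 0.24 (SE 0.107, adjusted p = 0.264), and the difference between these was not called (adjusted p = 0.181). mt-Co2 was at 1293, 1107 and 956 CPM in matBFMI and 1063, 1261 and 1171 in patBFMI, and at 2027, 1198, 1386 and 1408 CPM in the inbred mice. mt-Co3 was at 3009, 2683 and 2442 CPM in matBFMI and 2585, 3531 and 2885 in patBFMI, and at 3593, 2861, 3797 and 3549.9 CPM in the inbred mice. Both overlapped between the F1 groups, with log2 fold changes of -0.07 and -0.16.

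Of the ATP synthase genes, mt-Atp6 was at 673, 513 and 407 CPM in matBFMI and 582, 750.4 and 615 in patBFMI, and at 1117, 512, 792 and 852 CPM in the BFMI male, BFMI female, B6N male and B6N female. mt-Atp8 was at 35.7, 36.4 and 24.6 CPM in matBFMI and 27.5, 40.8 and 34.9 in patBFMI, and at 100.3, 32.6, 47.5 and 47.7 CPM in the inbred mice. For both, the BFMI male was highest and the BFMI female was below both B6N mice. The ribosomal RNA mt-Rnr2 was at 29889, 25305 and 19163 CPM in matBFMI and 25130, 30029 and 26474 in patBFMI, and at 29647, 26719, 31406 and 34806 CPM in the inbred mice. mt-Rnr1 was at 3437, 2954 and 2452 CPM in matBFMI and 2837, 3293 and 2764 in patBFMI, and at 3016, 2938, 3282 and 3803 CPM in the inbred mice. Both rRNAs were lower in both BFMI mice than in the B6N mice, but these strain log2 fold changes of -0.23 (SE 0.178) and -0.25 (SE 0.165) had adjusted p of 0.602 and 0.522. The 95% intervals of the F1 log2 fold change were -0.43 to 0.14 for mt-Rnr2 and -0.28 to 0.24 for mt-Rnr1.

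**Figure D2:**
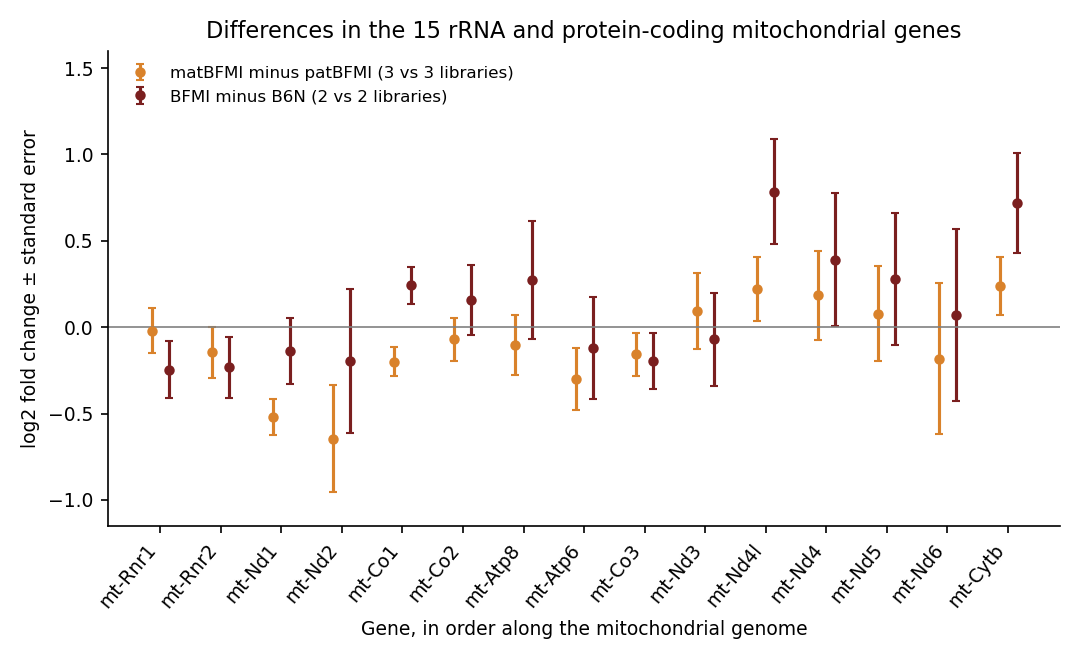
Log2 fold changes with standard errors for the 2 rRNA and 13 protein-coding mitochondrial genes, matBFMI against patBFMI and BFMI against B6N, from edgeR. The F1 values run from -0.65 (mt-Nd2) to 0.24 (mt-Cytb) and the strain values from -0.25 (mt-Rnr1) to 0.78 (mt-Nd4l), and none of the 15 genes passed an adjusted p of 0.05.

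Over these 15 rRNA and mRNA genes the median strain value had opposite signs in the male and the female pair, but not every gene changed sign. mt-Co1, mt-Nd4l and mt-Cytb were higher in BFMI in both sexes, and mt-Rnr1, mt-Rnr2 and mt-Co3 were lower in both. In males 12 genes were higher and 3 lower in BFMI than in B6N, with a median log2 ratio of 0.47 and a range from -0.12 (mt-Rnr1) to 1.46 (mt-Nd4l). In females 3 were higher and 12 lower, with a median of -0.35 and a range from -0.86 (mt-Nd2) to 0.21 (mt-Co1). Each sex has 1 library per strain, the BFMI male was also the most deeply sequenced and the only one on its lane. The difference between the male and the female strain difference was tested with edgeR, a test added after seeing the data, in which each inbred library has its own term and is assumed to vary like the F1 males. This difference was positive for all 15 genes, with a median log2 value of 0.85, beside 0.06 over all genes tested, and 0 were called (7 at an unadjusted p under 0.05, lowest adjusted p = 0.383 for mt-Atp8), beside 0.0300% of all genes called. In the fit of both sexes 0 of the 13 mRNA genes were called between BFMI and B6N, 3 had an unadjusted p under 0.05, and 6.67% of the 19974 genes tested were called.

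The mitochondrial tRNA genes, which the ribosome of the organelle needs for its 13 proteins, gave few reads. They are 59 to 75 bases long, and some overlap a neighbouring gene. How well such short RNA was captured and counted is not known here, so these counts are no measure of tRNA level. Of the 22 tRNA genes, mt-Ts2 had 0 reads in every library, which allows up to 3 reads per library by counting error, and 14 genes had under 10 reads in every library. Most tRNA reads (79.0% to 89.4%) fell on mt-Tp, the proline tRNA at the end of the gene map, with 416 to 1721 reads per library. mt-Tt, the threonine tRNA beside it, had 3 to 144 reads, and mt-Tf, the phenylalanine tRNA, 3 to 39, with the higher counts in patBFMI 1 and the inbred libraries. mt-Ts1, a serine tRNA, was at 0.710, 1.18 and 1.02 CPM in matBFMI and 0.688, 0.512 and 0.707 in patBFMI. The matBFMI values lay just above the patBFMI values, and the log2 fold change of 0.59 (SE 0.273) had an adjusted p of 0.534. mt-Tm, the methionine tRNA, had 5, 13 and 24 reads in matBFMI, 18, 11 and 17 in patBFMI, 2 and 12 in the BFMI male and female and 25 and 26 in the B6N male and female. It was lower in both BFMI mice, with a strain log2 fold change of -2.48 that was not called (adjusted p = 0.158).

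The cysteine tRNA, mt-Tc (mitochondrial positions 5192 to 5257, minus strand), had its lowest counts with BFMI mitochondria. It is shown with its anticodon in capitals as the mt-encoded gene called by mitochondrial type.
mt-Tc: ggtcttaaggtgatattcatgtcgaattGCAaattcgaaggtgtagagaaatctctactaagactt
Counts of mt-Tc were 3, 5 and 0 in matBFMI 1, 2 and 3, 7 in the BFMI male and 3 in the BFMI female. They were 24, 12 and 16 in patBFMI 1, 2 and 3, 27 in the B6N male and 43 in the B6N female. All 5 libraries with BFMI mitochondria thus held fewer reads than all 5 with B6N mitochondria, in the F1 males and in both sexes of the inbred mice. All counts with BFMI mitochondria were under 10, so mt-Tc entered the tests only through the libraries with B6N mitochondria. Neither its count among the genes tested nor the adjusted p values that follow are therefore support for a difference. The log2 fold change between BFMI and B6N mitochondria was -3.00 (SE 0.571, adjusted p = 0.0143 from edgeR), 8.02-fold lower. Between the inbred strains it was -3.28 (SE 0.855, adjusted p = 0.0486) and between the F1 groups -2.73 (SE 0.667, adjusted p = 0.21), comparisons that share libraries with the first. Called mt-encoded genes were 1 of 22 (4.55%) in each of the first 2 comparisons, beside 5.16% of all 19974 genes for mitochondrial type and 6.67% for strain, and separated libraries were found for 1 of 22, beside 2.32%. These shares are at or near the background. Over all 37 genes, mt-Tl1, a leucine tRNA, was the other one with separated CPM, 0 to 0.0194 with BFMI and 0.0213 to 0.0813 with B6N mitochondria, but it had 0 or 1 read in each of the former and 1 to 4 in each of the latter, too few to be tested. Without any 1 of the 4 inbred libraries the adjusted p of mt-Tc was 0.0573 to 0.0827 by mitochondrial type and 0.165 to 0.297 by strain, so that both calls were lost, as they were with limma on the deposited RPKM.

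**Figure D3:**
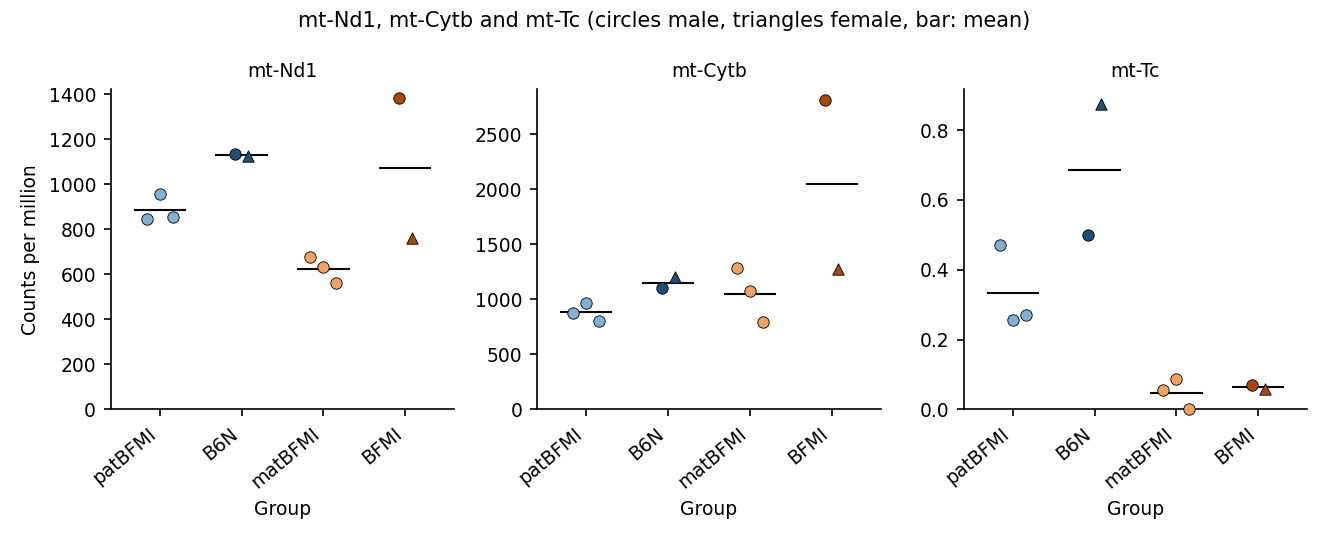
CPM after TMM scaling of mt-Nd1, mt-Cytb and mt-Tc in each library by group (circles male, triangles female, bars group means). mt-Tc lies at 0 to 0.0868 in the 5 libraries with BFMI mitochondria and at 0.256 to 0.874 in the 5 with B6N mitochondria, while for mt-Nd1 and mt-Cytb the BFMI male stands above all other libraries.

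For the 22 mt-encoded genes with enough reads in the fit of all 10 libraries, the F1 difference was compared with the strain difference directly. The difference between them was called for 0 genes, with 1 at an unadjusted p under 0.05 (mt-Co1), beside 2.69% called among all genes tested. The fit without the filter on low counts also called 0.

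The 3 nuclear copies were high wherever the mice carried BFMI mitochondria. Gm13340 had 98098, 112717 and 87598 reads in matBFMI 1, 2 and 3, 274737 in the BFMI male and 105114 in the BFMI female, against 32782, 33149 and 40475 in patBFMI 1, 2 and 3, 40054 in the B6N male and 29809 in the B6N female. Gm4076 had 614, 612 and 415 reads in matBFMI, 3000 in the BFMI male and 791 in the BFMI female, against 36, 24 and 16 in patBFMI, 30 in the B6N male and 58 in the B6N female. Gm11512 had 411, 434 and 412 reads in matBFMI, 1288 in the BFMI male and 427 in the BFMI female, against 19, 15 and 13 in patBFMI, 20 in the B6N male and 15 in the B6N female. For each of the 3 copies every library with BFMI mitochondria lay above every library with B6N mitochondria. The F1 males of both crosses carry both nuclear genomes on their autosomes, where all 3 copies lie. On the scale of CPM, Gm13340 was at 1815 ± 152 in matBFMI and 678 ± 31.4 in patBFMI, Gm4076 at 9.98 ± 1.90 and 0.497 ± 0.220, and Gm11512 at 7.67 ± 0.126 and 0.304 ± 0.0786 (SD, n = 3 each). These F1 differences were 2.65-, 20.2- and 25.1-fold.

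In the inbred mice all 3 copies were higher in BFMI than in B6N. Gm13340 was at 2715 and 2039.6 CPM in the BFMI male and female and at 740.2 and 606 in the B6N male and female, a log2 fold change of 1.81. Gm4076 was at 29.6 and 15.3 CPM in BFMI and at 0.554 and 1.18 in B6N, a log2 fold change of 4.65. Gm11512 was at 12.7 and 8.29 CPM in BFMI and at 0.370 and 0.305 in B6N, a log2 fold change of 4.94. The strain differences were 3.51-, 25.1- and 30.8-fold. The BFMI male was the highest library for each of the 3, and the lowest BFMI value lay above both B6N values.

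**Figure D4:**
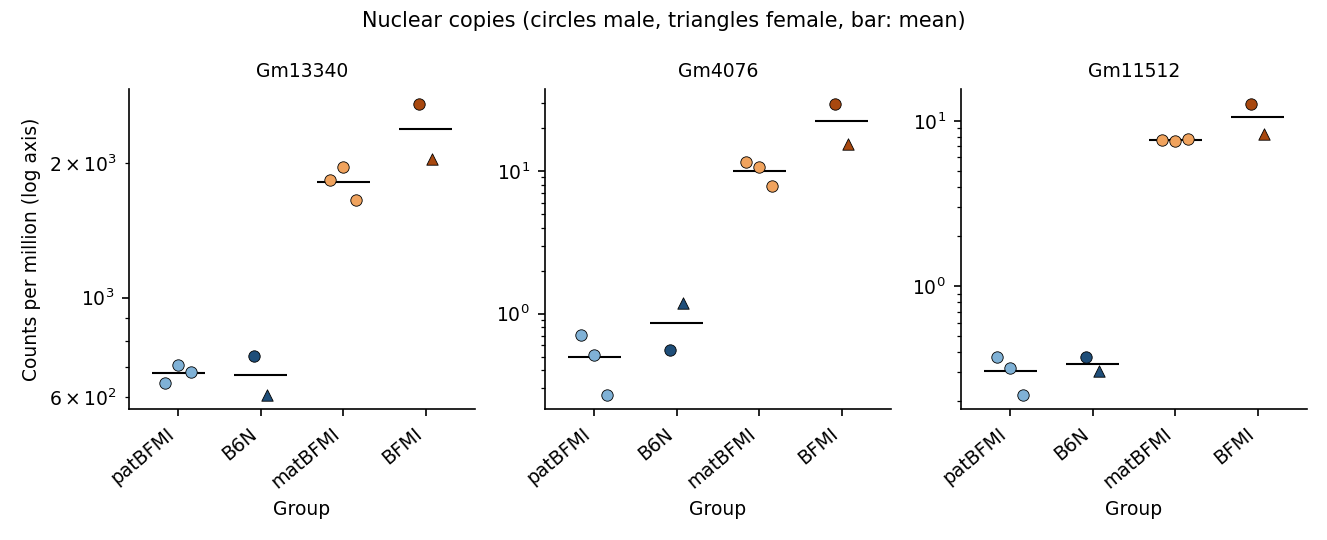
CPM after TMM scaling, on log axes, of the nuclear copies Gm13340, Gm4076 and Gm11512 in each library by group (circles male, triangles female, bars group means). For all 3, the 3 matBFMI and 2 BFMI libraries lie above the 3 patBFMI and 2 B6N libraries, with F1 means of 1815 and 678, 9.98 and 0.497, and 7.67 and 0.304 CPM.

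Set against the mitochondrial gene it matches, each copy took a share of reads whose range did not overlap between the mitochondrial types. Gm13340 held 14.01% to 14.58% of the reads of Gm13340 and mt-Co1 together in the 5 libraries with BFMI mitochondria and 5.14% to 5.32% in the 5 with B6N mitochondria. F1 males and inbred mice of the same mitochondrial type stood together, with 14.3%, 14.2% and 14.3% in matBFMI beside 14.58% and 14.01% in BFMI. Gm4076 held 2.85% to 4.003% of the reads shared with mt-Nd5 against 0.131% to 0.216%, and Gm11512 held 0.0639% to 0.0799% of those shared with mt-Co1 against 0.00176% to 0.00319%. Such a share depends neither on library size nor on the scaling. How reads that match several places were assigned is not given in the sources used here, so that transcription of a copy and reads of its mitochondrial gene counted there cannot be told apart from these tables.

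The other nuclear copies behaved in several ways. Matching the transcripts of all nuclear genes to the mitochondrial genes by BLAST (at least 100 bases at 80% identity or more) found 29 genes, of which 20 were in the tables, the 3 members and 17 others. On chromosome 1, 7 copies with 99.71% to 100% identity took 16.6% to 61.7% of the reads of copy and mitochondrial gene. Gm28437, identical to mt-Co3 over 783 bases, took 49.8% to 50.1% in every library, and Gm28661, identical to mt-Co2 over 681 bases, took 49.98% to 50.85%. Gm28438 took 50.2% to 51.2% of the reads shared with mt-Nd3, Gm10222 49.4% to 55.3% with mt-Nd4l, and Gm10925 59.7% to 61.7% with mt-Atp6. Gm28439 took 20.9% to 22.3% with mt-Nd4 and Gm29216 16.6% to 18.3% with mt-Co1. Apart from Gm28438, whose lowest share with BFMI mitochondria (50.93%) lay just above its highest with B6N mitochondria (50.87%), these shares overlapped between the mitochondrial types. For mt-Co2, mt-Co3, mt-Nd3, mt-Nd4l and mt-Atp6 the copy thus held about as many reads as the mitochondrial gene, or more.

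On chromosome 2, 3 copies lie side by side on the minus strand, Gm13341 (matching mt-Co2), Gm13340 (mt-Co1) and Gm13339 (mt-Nd2). Gm13341, with 95.91% identity, held 5.33% to 5.80% of the reads shared with mt-Co2 in libraries with BFMI mitochondria and 5.42% to 5.85% in those with B6N mitochondria. Gm13339, with 96.67% identity over 510 bases, had 476, 313 and 151 reads in matBFMI, 2471 in the BFMI male and 1015 in the BFMI female, against 118, 61 and 65 in patBFMI, 356 in the B6N male and 318 in the B6N female. Its share was 2.64% to 5.42% with BFMI and 0.511% to 1.51% with B6N mitochondria, again without overlap. The log2 fold change of Gm13339 was 1.81 by mitochondrial type (SE 0.291, adjusted p = 0.0062) and 1.75 by strain (SE 0.429, adjusted p = 0.0373), the latter lost without any 1 inbred library (adjusted p = 0.157 to 0.274) and the former without the B6N male (adjusted p = 0.058) or the BFMI male (adjusted p = 0.0549). With limma on the deposited RPKM neither was called (adjusted p = 0.395 and 0.453 by mitochondrial type, 0.739 and 0.971 by strain, with pseudocounts of 1 and 0.1). Between the F1 groups Gm13339 had a log2 fold change of 1.85 and an adjusted p of 0.179. So Gm13340 and Gm13339 were higher with BFMI mitochondria, while the share of their neighbour Gm13341 overlapped. mt-Tc lies between the mitochondrial genes that these 2 copies match, 240 bases after mt-Nd2 and 70 bases before mt-Co1, and no annotated copy covers it.

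Gm20594 on chromosome 6, annotated as protein-coding, matched 435 bases of mt-Rnr2 at 88.51% identity and went the opposite way. It had 47, 24 and 25 reads in matBFMI, 19 in the BFMI male and 13 in the BFMI female, against 35, 99 and 102 in patBFMI, 57 in the B6N male and 56 in the B6N female. The log2 fold change was -1.84 by mitochondrial type (SE 0.349, adjusted p = 0.0142) and -2.33 by strain (SE 0.56, adjusted p = 0.0346), though the counts of matBFMI 1 and patBFMI 1 overlapped. Both calls were lost without any 1 inbred library (adjusted p = 0.0579 to 0.113 by mitochondrial type, 0.154 to 0.271 by strain), and with limma on RPKM (0.0971 and 0.12 by mitochondrial type, 0.221 and 0.354 by strain). Gm11407, a copy of mt-Nd5 on chromosome 4 at 92.34% identity, had 5 to 73 reads and did not pass in any comparison. Of the 13 other copies with enough reads in the fit of all libraries, Gm13339 and Gm20594 were the 2 called by mitochondrial type (5.16% of all genes) and by strain (6.67%), and 0 of 11 were called between the F1 groups (0.143%).

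**Figure D5:**
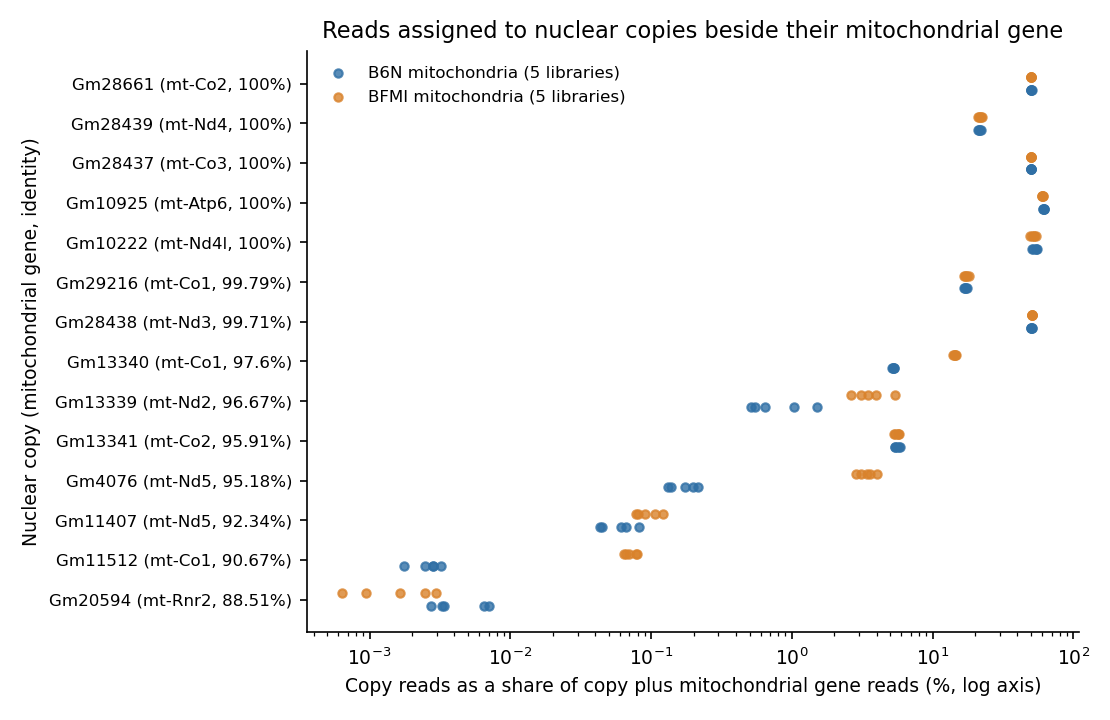
Reads of each nuclear copy with at least 1 read in every library as a share of the reads of copy and mitochondrial gene (%, log axis), copies ordered by identity to the mitochondrial gene, 5 libraries per mitochondrial type. Gm13340, Gm13339, Gm4076 and Gm11512 are separated by mitochondrial type, while the copies above 99% identity lie at 16.6% to 61.7% in all libraries.

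When the reads of all 20 copies were added to the mitochondrial gene each matches best, an alternative chosen after seeing the data, the F1 difference of mt-Co1 moved from -0.20 to -0.07 (SE 0.083, adjusted p = 0.821). The strain difference of mt-Co1 moved from 0.24 to 0.37 (SE 0.105, adjusted p = 0.0673). For mt-Nd1, which has no listed copy, the F1 value stayed at -0.52 (adjusted p = 0.138). Of the 15 rRNA and mRNA genes 0 passed in the F1, strain or mitochondrial comparison after this addition.

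Nuclear genes that act in mitochondrial gene expression were described from 4 lists, 171 genes of which 169 were tested. Between matBFMI and patBFMI 0 of them were called by edgeR, beside 0.143% of all genes tested. At an unadjusted p under 0.05, 3 were higher and 5 lower, beside 864 higher and 790 lower among all 16797 genes tested. DESeq2 called 1 of them, beside 305 genes in all, and edgeR without the filter on low counts called 3, beside 696. Of the 169, 103 had a positive and 66 a negative log2 fold change, beside 8214 positive (48.9%) and 8583 negative among all genes tested, and the median was 0.03. The list medians were -0.04 for transcription and DNA maintenance (22 genes), -0.02 for RNA processing (37), 0.02 for translation (34) and 0.06 for the mitochondrial ribosome (76).

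Among these, Trmt2b, which methylates a uridine of mitochondrial tRNA and rRNA, had the smallest F1 p. Trmt2b was at 25.5, 24.9 and 26.8 CPM in matBFMI, 31.2, 33.5 and 32.5 in patBFMI, 22.7 and 26.2 in the BFMI male and female and 31.4 and 31.8 in the B6N male and female, so that the 5 libraries with BFMI mitochondria lay below the other 5. Its F1 log2 fold change was -0.35 (SE 0.0737, adjusted p = 0.146). Trmt2b was lower by mitochondrial type as well (log2 fold change -0.35, SE 0.0666, adjusted p = 0.014), a value that shares the F1 libraries, and stood at -0.37 by strain (adjusted p = 0.0632). The call by mitochondrial type was lost without matBFMI 1, matBFMI 2, the B6N male or the BFMI male (adjusted p = 0.0667 to 0.118), without the filter on low counts (0.116) and with limma on RPKM (0.102 and 0.108). Trmt2b is X-linked, and F1 males carry only the X chromosome of the mother, so that X and mitochondrial origin go together in every group and cannot be told apart. The same holds for Hsd17b10, a subunit of the enzyme that cuts tRNA ends, at a log2 fold change of 0.36 in the F1 males (SE 0.133, adjusted p = 0.416). The study named both genes from these libraries. Lars2, the leucyl-tRNA synthetase of mitochondria, had a log2 fold change of -1.45 in the F1 males (SE 0.521, adjusted p = 0.406) and was lower by mitochondrial type (log2 fold change -1.99, adjusted p = 0.0355), a call lost without any 1 of patBFMI 3, matBFMI 2, matBFMI 3, the B6N male and the BFMI male (adjusted p = 0.0624 to 0.218), and with limma on RPKM (0.108 and 0.102). Trit1, which modifies an adenosine beside the anticodon of some tRNAs, stood at -0.26 (adjusted p = 0.397), and Mrps21, of the small ribosomal subunit, at 0.25 (adjusted p = 0.401). Tfam, which packages mitochondrial DNA and starts its transcription, stood at 0.09 (adjusted p = 0.778) and the RNA polymerase Polrmt at -0.06 (adjusted p = 0.864).

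Between the inbred strains 7 of the 169 genes were higher and 2 lower in BFMI, a share under the 6.67% called among all genes. These calls are therefore given as a description of single genes and not as a result about the lists. Higher were the polymerase Polrmt (log2 fold change 0.45, adjusted p = 0.0445), the topoisomerase Top1mt (0.51, adjusted p = 0.0234), Fastkd3, which acts on mitochondrial mRNAs (0.65, adjusted p = 0.0142), the tRNA synthetases Aars2 (0.57, adjusted p = 0.0346) and Ears2 (0.78, adjusted p = 0.0319), the elongation factor Tsfm (0.57, adjusted p = 0.0287) and the ribosomal protein Mrps18a (0.53, adjusted p = 0.024). Lower were the methionyl-tRNA synthetase Mars2 (-1.02, adjusted p = 0.0133) and the ribosomal protein Mrps10 (-0.74, adjusted p = 0.0159). None of these 9 was called in the F1 males. Of the 9 strain calls, 7 were lost whichever inbred library was left out, and those of Mars2 and Mrps10 without the B6N male or the BFMI male. None of the 9 was called with limma on RPKM, and Polrmt was not called without the term for sex (adjusted p = 0.109) or without the filter on low counts (0.054). By mitochondrial type 4 were higher (Top1mt, Aars2, Tsfm and Mrps18a) and 2 lower (Trmt2b and Lars2), again a share under the 5.16% of all genes. Each of these 6 calls was lost in 4 to 9 of the 10 fits that left out 1 library, and all 6 with limma.

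Markers of other liver cells were set beside these results. The 10 Kupffer cell and macrophage markers summed to 220.0 to 252 CPM in matBFMI and 278 to 292 in patBFMI. All 10 had a negative F1 log2 fold change and 0 were called, while 48.9% of all genes tested had a positive one. In the inbred mice they summed to 259 and 334 CPM in the BFMI male and female and 439.8 and 463 in the B6N male and female, so the sum was lower with BFMI mitochondria within each pair. The 6 erythroid markers summed to 546 to 586 CPM in matBFMI and 522 to 601 in patBFMI. They summed to 919 and 733 CPM in the BFMI male and female and to 395 and 225 in the B6N male and female. F1 log2 fold changes were also mostly negative for the endothelial (5 of 6), lymphocyte (3 of 3 tested), hepatocyte (7 of 10) and erythroid (4 of 6) markers. They were mostly positive for the stellate cell (4 of 7) and cholangiocyte (3 of 5) markers, and 0 were called in any list. The part of these cell types in the differences of mt-Nd1, mt-Tc and the nuclear copies was not tested.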

How the data were processed

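Liver RNA from 10 mice was sequenced as paired ends. The sources name Trimmomatic 0.32, TopHat2 2.10, Bowtie2 2.2.6 and Picard 1.99 (the submitters' processing notes, mm10) and BWA (the study's methods). The deposited tables hold gene counts, which the authors made by counting overlaps in union mode after removing duplicates, and RPKM, which the authors quantile-normalized. Handling of reads with several matches and of strand is not given in the sources used here. Among the columns, 3 without a sample record were not used. Genes were placed with GENCODE M21 (40254 of 41388 matched).

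Counts were tested with edgeR 4.0.16 (R 4.3.3, TMM, quasi-likelihood, two-sided, Benjamini-Hochberg over all genes tested), in the 6 F1 libraries (at least 10 counts in 3 or more) and in all 10 (2 or more) with a term for sex, after tests on simulated data. Shares were compared by exact permutation. BLAST 2.17.0 found nuclear copies. DESeq2 1.42.0, limma 3.58.1 on log2(RPKM + pseudocount), other scalings and filters and left-out libraries served as alternatives, and a strain-by-sex contrast was added after seeing the data. Offspring numbers did not pair the F1 groups. Named are all members, copies found by BLAST, and listed nuclear genes past the threshold or with the smallest p. Members and lists were chosen with earlier results of these data known, so the planned strain test of the 3 nuclear copies is not used. The intervals are 95% normal intervals from the SE.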

Additional observations from a re-analysis of the deposited data

Results flagged for a closer look

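In the group of 5 libraries with BFMI mitochondria, the BFMI male stood far above the others for 4 measures, by the gap to its nearest neighbour as a share of the range. Its levels were 1382 CPM for mt-Nd1, 100.3 CPM for mt-Atp8, 2809.7 CPM for mt-Cytb and 12.73 CPM for Gm11512. Among 42 groups examined 4 were picked out in this way. Chance picks out about 1 in 20 where all values of a group come from the same normal distribution. Here each group mixes F1 males with inbred mice of both sexes, and all measures come from the same libraries. The number picked out can therefore not be set against that rate. This library was also the deepest, with 96023811 assigned reads, and the only one on lane 1. The part of depth and lane in these levels was not tested.

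The strain difference in the share of reads from the mitochondrial genome had opposite signs in the sexes. BFMI minus B6N was 0.89 percentage points in males and -1.172 percentage points in females, with 1 library for each strain and sex, and the difference between the sexes was not tested for the share itself. For single genes it was tested with edgeR, and 0 of 22 mt-encoded genes were called.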

How the results depend on the processing

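The number of mt-encoded genes called between matBFMI and patBFMI (0 by edgeR) was 2 with DESeq2 (mt-Nd1, mt-Tc), 3 without the filter on low counts (mt-Nd1, mt-Nd2, mt-Tc) and 1 (mt-Nd2) with offspring number as a replicate block. The block raised the calls over all genes from 24 to 175, the filter's removal to 696 and DESeq2 to 305. Same-numbered F1 males correlated at 0.391, 0.0035 and 0.204, and matBFMI 2 correlated best with patBFMI 3 (0.260), so the numbers were not taken as pairs. Between the strains 1 mt-encoded gene was called, 0 with library size only and with limma on RPKM at either pseudocount, 4 without the filter, and 0 to 2 with 1 library left out. By mitochondrial type 1 was called, 0 with DESeq2, which gave mt-Tc no adjusted p, 0 with limma at either pseudocount, 3 without the filter, and 0 to 2 with 1 library left out. Over all genes, removing the filter raised the calls from 1332 to 1930 by strain and from 1030 to 1934 by mitochondrial type. DESeq2 called 1671 and 1492 genes in these comparisons. With limma, calls fell to 364 and 320 by strain and to 232 and 221 by mitochondrial type (pseudocounts of 1 and 0.1). The 3 nuclear copies, chosen by their levels, are given without a test. Of the nuclear genes for mitochondrial gene expression 0 were called between the F1 groups, 1 with DESeq2 and 3 without the filter. The F1 difference in mitochondrial share, -0.22 percentage points, ran from -0.505 to 0.164 with 1 library left out. The difference by mitochondrial type, -0.19 points, was 0.0781 for protein-coding genes only, 0.0751 without the 2 rRNA genes and 0.0109 for summed RPKM, and ran from -0.46 to 0.128 with 1 library left out. The F1 log2 fold change of mt-Co1 was 0.0139 with limma on RPKM at either pseudocount, and the median of all genes then was -0.08 and -0.12 in place of -0.01. The cause of these changes was not tested. Leaving out 1 inbred library rests the strain comparison on the other sex, with 1 sample per strain assumed to vary like the others. The reads of few tRNAs limit what their counts can show.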
